A study of Mus musculus with 21 samples.

Results

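Albumin mRNA divided 21 libraries from mouse gastrocnemius muscle into 8 with more than 250 CPM (counts on a gene per 1000000 counts of its library) and 13 with fewer. The 8 high-Alb libraries were chosen by their measured Alb value alone, and they carry the consecutive mouse labels M304 to M311. The 13 low-Alb libraries carry the labels M312 to M323 and M325. In the high-Alb set were Active replicates 1 to 5, Activity Reduction replicates 1 and 2, and Inactive replicate 1. The low-Alb set held 2 Active, 5 Activity Reduction and 6 Inactive libraries. Nothing in the labels says what the consecutive numbers stand for, so mouse number and Alb level cannot be told apart.

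Each library came from 1 female C57BL/6NJ mouse, with 7 mice in each of 3 groups. Mice were 10 weeks old at the start. The Active group ran on a treadmill on 5 days per week for 6 weeks, in sessions of up to 40 min that opened with a slow warm-up and went on at about 70% of maximal speed. The Activity Reduction group did the same for 4 weeks and was then inactive for 2 weeks, and the Inactive group did not train. All 3 groups took graded maximal running tests, and muscle was collected 48 to 72 h after the last exercise, in all groups after a fast of some hours. The whole medial belly of the muscle was homogenized, so each library held every cell type of that piece, and poly(A) RNA was sequenced. The libraries were muscle by their markers: Myh4, the myosin heavy chain of the fastest fibers, had between 68045 and 96075 CPM in the 21 libraries, and none of 6 Y-linked genes had a count in any library. Total counts ran from 38482455 to 53767656 in the high-Alb set and from 47963641 to 59785132 in the low-Alb set.

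Albumin is the main protein of blood plasma and is made by hepatocytes, the epithelial cells of the liver. Hepatocytes also make most apolipoproteins, clotting factors and complement proteins, and they hold the enzymes of the urea cycle, of bile acid synthesis and of drug metabolism. Transcription of these genes in the liver depends on factors such as HNF1 and HNF4A, and adult skeletal muscle transcribes few of them at a high level. Kupffer cells are the macrophages of the liver, and its sinusoids are lined by an endothelium with markers of its own.

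Alb (GRCm39, chr5:90608647-90624696, plus strand, protein coding) was counted in every library. Among the 8 high-Alb libraries, the Active group had 718, 365, 814, 976 and 798 CPM, the Activity Reduction group 770.5 and 597, and the Inactive library 1155. The low-Alb libraries had between 71.1 and 161 CPM with a median of 118. Activity Reduction replicate 7, at 161 CPM, was just below the division and Active replicate 2, at 365 CPM, was just above it, and no library lay between them. The log2 difference between the sets, with training group as a covariate, was 2.78 ± 0.16 (SE, 8 against 13 libraries). This difference was fixed by how the sets were chosen and has no test.

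**Figure D1:**
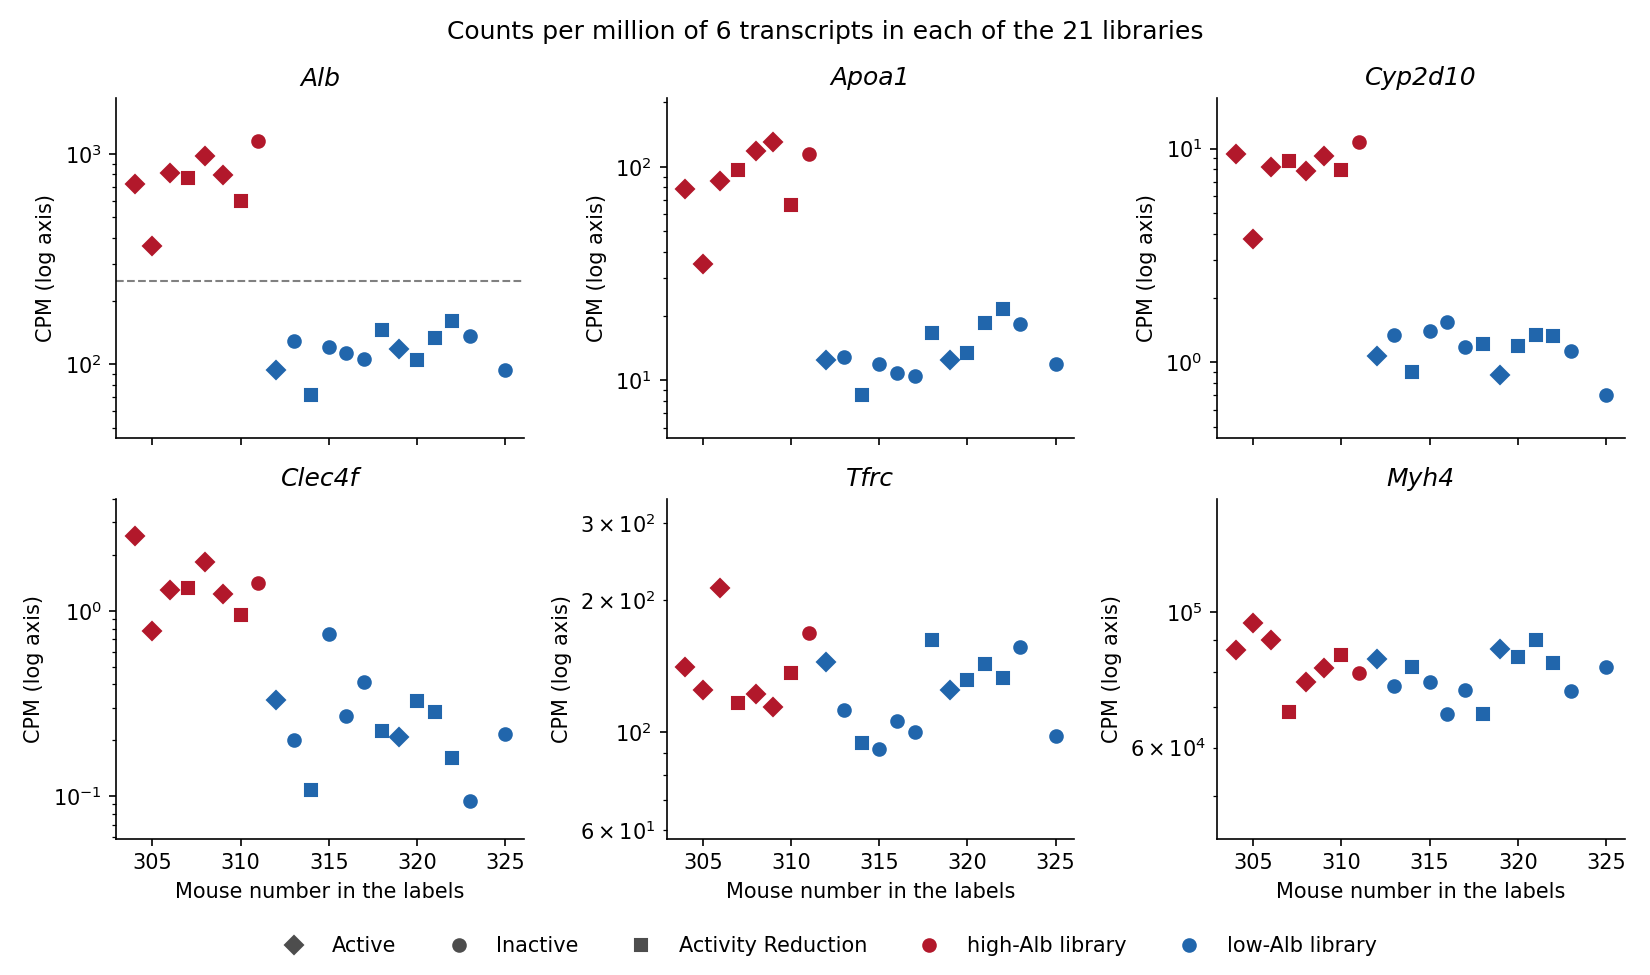
CPM (log axis) of 6 transcripts in each library against the mouse number in the labels, with symbols for the training group and colors for the high-Alb and low-Alb sets; the dashed line in the Alb panel is the division at 250 CPM. Alb, Apoa1 and Cyp2d10 are higher in each of the 8 libraries M304 to M311 than in any of the other 13, and Tfrc and Myh4 overlap between the sets.

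The promoter of Alb and that of Gc, which encodes the vitamin D-binding protein of plasma, are shown because both hold the letters of an HNF1 motif close to the start of transcription, and that of Cyp2c69, a cytochrome P450 gene, because it holds the letters of an HNF4 motif. Each is 60 bases of the RefSeq promoter table (GRCm38.p6), written 5′ to 3′ on the strand of the gene, with the motif in capitals. They are at chr5:90460813-90460872 for Alb (plus strand), at chr5:89457916-89457975 for Gc (minus strand) and at chr19:39886810-39886869 for Cyp2c69 (minus strand).
Alb: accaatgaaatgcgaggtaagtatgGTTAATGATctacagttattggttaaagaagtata
Gc: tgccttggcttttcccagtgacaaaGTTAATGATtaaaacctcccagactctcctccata
Cyp2c69: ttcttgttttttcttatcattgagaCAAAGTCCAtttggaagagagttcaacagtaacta
The motifs searched on both strands were GTTAATNAT for HNF1 and CAAAGTCCA for HNF4, in windows from 250 bases before to 50 bases after each start. Of 12376 promoters of tested genes, 0.65% held the HNF1 letters and 0.56% the HNF4 letters. Of 281 promoters of genes with a log2 difference over 2 between the sets, 8.54% and 5.69% held them. Of 87 promoters of genes with a difference between 1 and 2 these shares were 5.75% and 0.0%, and of 137 with a difference up to 1 both were 2.19%. These matches describe sequence and show no binding.

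The 40 listed genes of proteins that the liver secretes were all tested, and each had a higher CPM in every high-Alb library than in any low-Alb library. Over all tested genes, this held for 2.61%. Alb itself, which fixed the sets, is one of the 40. Their log2 differences ran from 1.55 to 3.54 with a median of 2.63, beside a median of 0.00 over the 16129 genes tested. In these bulk libraries, more cells of a type and more RNA per cell cannot be told apart. Liver transcripts were known from earlier results to divide these libraries, so the differences of the liver lists are a description, and calls among them are counted without being read as evidence. Apoa1, the main protein of high-density lipoprotein, had 35.1 to 131 CPM (median 91.5) in the high-Alb set and 8.57 to 21.6 CPM (median 12.4) in the low-Alb set. Its log2 difference was 2.72 ± 0.20 (SE). Ahsg, which encodes fetuin-A, had 30.9 to 99.7 CPM (median 81.9) against 6.78 to 15.9 CPM (median 12.02). Both transcripts had their lowest high-Alb value in Active replicate 2, as Alb did. Trf, which encodes the iron carrier transferrin, and C3, the central complement component, had smaller log2 differences, 2.25 ± 0.12 and 1.92 ± 0.12.

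Of 37 tested genes of liver metabolism, 34 passed the thresholds used below, all with higher expression in the high-Alb set, beside 4.04% of all tested genes that were higher, and the median log2 difference was 2.70. Ass1, which makes argininosuccinate in the urea cycle, had 20.7 to 77.6 CPM (median 47.6) in the high-Alb set and 5.06 to 12.1 CPM (median 8.93) in the low-Alb set. Pck1, the gluconeogenic enzyme that makes phosphoenolpyruvate, had 21.8 to 79.4 CPM (median 57.5) against 7.93 to 17.9 CPM (median 10.3). For both genes the sets did not overlap. The log2 differences of Gstp1 and Aldh1a1 were 0.06 ± 0.04 and 0.04 ± 0.08, and their CPM overlapped between the sets. Gstp1, which encodes a glutathione S-transferase found in many tissues, had a median of 101 CPM in the high-Alb set and 98.3 CPM in the low-Alb set.

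Relative to Alb, the levels of most liver transcripts compared were much alike in both sets. Alb also fixed the sets, so ratios to it are only a description. Counts of 76 secreted and metabolic transcripts were divided by the Alb count of the same library, and the median log2 ratio of the high-Alb to the low-Alb set was -0.07. For 71 of the 76 the ranges of the sets overlapped, and 67 of the set means lay within 1.5-fold of each other. Apoa1 counts were 11.7% ± 2.18 (SD, n = 8) of Alb counts in the high-Alb set and 11.8% ± 1.63 (SD, n = 13) in the low-Alb set. Gc counts were 9.12% ± 1.33 of Alb counts in the high-Alb set and 9.36% ± 0.737 in the low-Alb set. The 5 transcripts whose share was lower in every high-Alb library than in any low-Alb library were Gstp1, Aldh1a1, Sult1a1, Adh1 and Vtn, and 0 had a share that was higher in every high-Alb library. Gstp1 counts, for example, were 14.3% ± 5.97 of Alb counts in the high-Alb set and 89.0% ± 20.1 in the low-Alb set.

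**Figure D2:**
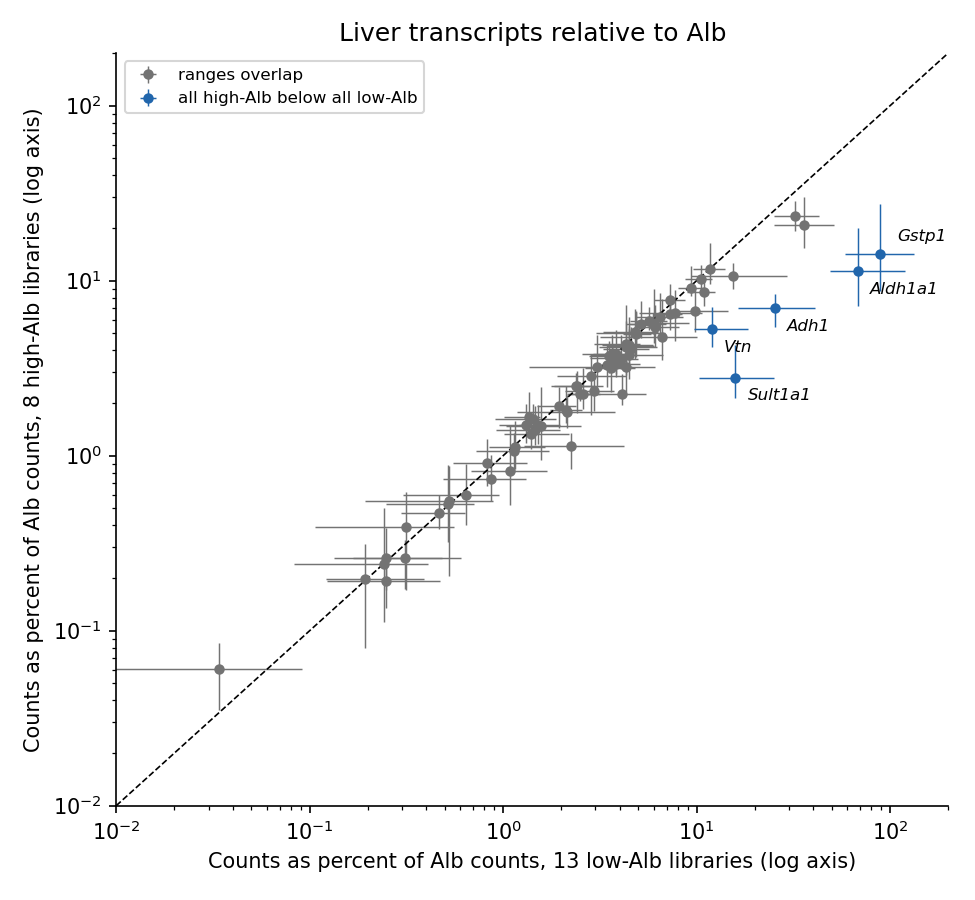
Counts of 76 liver transcripts as a percent of the Alb counts of the same library, with the mean of the 13 low-Alb libraries on the x axis and the mean of the 8 high-Alb libraries on the y axis (both log axes, bars from the lowest to the highest library, cut at the edge of the plot where the lowest is 0, dashed line for equal shares). For 71 transcripts the ranges overlap, and the 5 blue ones, Gstp1, Aldh1a1, Sult1a1, Adh1 and Vtn, lie below the line.

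Liver transcripts known to differ between the sexes of the mouse were described by their lists. Of 16 female-biased genes, 14 had enough counts to be tested. Of these 14, 13 passed the thresholds with higher expression, beside 4.04% of all tested genes, and the median log2 difference of the 14 was 2.66. Cyp2b9, a P450 that female mouse liver expresses, had 2.96 to 7.40 CPM (median 5.40) in the high-Alb set and 0.416 to 1.08 CPM (median 0.813) in the low-Alb set. Of 15 male-biased genes, 7 had enough counts to be tested, and 5 of the 7, C8b, Cyp2d9, Cyp7b1, Mup20 and Serpina1e, passed with higher expression (median log2 difference of the 7, 2.38). Cyp4a12a, Cyp4a12b and Ugt2b38 had 0 counts in all 21 libraries, and Hsd3b5 had 2 counts over the high-Alb set and 2 over the low-Alb set. Mup20, a major urinary protein, had a median of 0.397 CPM in the high-Alb set and 0.0361 CPM in the low-Alb set, and the sets did not overlap. Cyp2d9, at 0 to 0.154 CPM in the low-Alb set, and Mup20 were kept for testing through the high-Alb libraries. So was the female-biased Sult2a1, at 0 to 0.225 CPM in the low-Alb set. The counts of 5 of 7 and 13 of 14 depend on this filter.

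Along the liver lobule, the 12 periportal markers all passed with higher expression, beside 4.04% of all tested genes, and had a median log2 difference of 2.61. Cps1, the first enzyme of the urea cycle, had 15.0 to 65.2 CPM (median 38.9) against 3.08 to 8.17 CPM (median 5.91), a log2 difference of 2.87 ± 0.20 (SE). Of 12 pericentral markers, 6 passed with higher expression and the median log2 difference was 1.27. Cyp2e1, a pericentral P450, was among the 6, with 38.1 to 117 CPM (median 85.3) against 9.83 to 27.4 CPM (median 17.1). The 6 that did not pass were Glul, Oat, Slc1a2, Cyp27a1, Gstm1 and Aldh1a1. Glul, which encodes glutamine synthetase and is also expressed in muscle, had 303 to 543 CPM (median 333) in the high-Alb set and 276 to 962 CPM (median 471) in the low-Alb set.

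Across all genes, 651 transcripts (4.04% of the 16129 tested) had higher and 26 (0.161%) had lower expression in the high-Alb set, at an adjusted p-value under 0.05 and a log2 difference over 0.25 in either direction (edgeR's quasi-likelihood test, Benjamini-Hochberg adjustment, training group as covariate). Outside the liver lists, 553 transcripts (3.45%) were higher and 26 (0.162%) lower. For 421 transcripts (2.61%) every high-Alb library was above every low-Alb library, and for 0 was every high-Alb library below. Alb, which fixed the sets, is counted among the 651 and the 421. The 651 transcripts together took between 0.418% and 0.930% of the counts of a high-Alb library (median 0.743%) and between 0.236% and 0.280% of a low-Alb library (median 0.263%). Of those 651, 365 had a log2 difference over 2, 115 between 1 and 2, and 171 up to 1. The median CPM of the 365 in the low-Alb set was 0.5255. Members near 0 there were kept for testing through the high-Alb libraries, so these counts depend on the filter. With at least 1 CPM in at least 8 libraries required, 438 of 12528 tested transcripts were higher.

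The 10 transcripts outside the liver lists with the smallest p-values among the higher ones were Rdh7, Cyp2d10, Azgp1, Ugt2b34, Slc27a5, Cyp2c69, Gsta3, H2-Q10, Cyp2a5 and Reep6. For each of these 10, every high-Alb library was above every low-Alb library. Rdh7, a retinol dehydrogenase gene (chr10:127719896-127724686), had 7.51 to 19.2 CPM (median 15.1) in the high-Alb set and 1.29 to 2.76 CPM (median 2.06) in the low-Alb set, a log2 difference of 2.87 ± 0.15 (SE) with an adjusted p-value of 8.5e-12. Slc27a5, which activates bile acids before they are conjugated, had 6.08 to 19.0 CPM (median 12.8) against 1.43 to 2.80 CPM (median 1.82). H2-Q10, a class I histocompatibility gene whose soluble product the liver secretes, had 11.1 to 30.9 CPM (median 22.8) against 2.42 to 4.67 CPM (median 3.60). All 10 are expressed in liver, although they were in none of the liver lists. Reep6 had the smallest of the 10 differences, 1.53 ± 0.09 on the log2 scale, with 3.36 to 4.69 CPM in the low-Alb set and 7.64 to 14.4 CPM in the high-Alb set. Reads of close paralogs, such as Cyp2a5 with Cyp2a4 and the Cyp2c genes among themselves, may have been divided between copies, so single values within these families are uncertain.

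Gene families named by their symbols, chosen after the values were seen, are described here by counts with no test, beside the 4.04% of all tested genes that were higher. All 11 UDP-glucuronosyltransferases, 12 of 12 apolipoproteins and 42 of 62 cytochrome P450 genes were higher, with median log2 differences of 2.83, 2.58 and 2.53 over the tested members. Of 12 carboxylesterases 10 were higher, of 8 sulfotransferases 5, of 27 serpins 16 (median 1.498) and of 16 glutathione S-transferases 6 (median 0.15). Some members near 0 in the low-Alb set were kept for testing through the high-Alb libraries, such as Ugt1a9 (0 to 0.188 CPM in the low-Alb set) and Sult2a2 (0 to 0.162 CPM). The family counts depend on this filter. Of 20 genes of clotting and its control, 17 were higher, and the other 3 were F8, F13a1 and Pros1. Of 24 complement genes, 17 were higher. C1qa, C1qb and C1qc, which macrophages express, were among the 7 that did not pass, and C1qa had a log2 difference of -0.02 ± 0.21. Of 8 urea cycle genes 7 passed, and of 13 genes of bile acid synthesis and transport 12 passed, among them Cyp7a1, the rate-limiting enzyme of bile acid synthesis, with 1.14 to 5.23 CPM (median 2.91) against 0.125 to 0.542 CPM (median 0.339). Of 13 transcription factors known from liver 12 passed. Hnf4a had 4.00 to 13.8 CPM (median 7.19) in the high-Alb set and 0.652 to 1.79 CPM (median 1.20) in the low-Alb set. Cebpb, the one factor that did not pass, had a log2 difference of -0.27 ± 0.33.

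A set of 19 genes of hormones, growth factors and other messengers of the circulation with their carriers and receptor was chosen in the same way. Of these 19, 14 were higher, beside 4.04% of all tested genes, and the median log2 difference of the 19 was 0.96. Hamp, which encodes the iron hormone hepcidin, had 5.28 to 13.9 CPM (median 10.97) against 1.21 to 3.03 CPM (median 2.31). Igf1, insulin-like growth factor 1, had 7.09 to 14.1 CPM (median 11.7) against 4.21 to 7.41 CPM (median 5.84), a log2 difference of 0.98 ± 0.12 (adjusted p = 1.9e-06). Igf1 is also made in muscle, and its ranges overlapped between the sets. Selenop, the selenium carrier, had 123 to 179 CPM (median 154) against 92.5 to 129 CPM (median 110.3), a log2 difference of 0.44 ± 0.06. Ghr, the growth hormone receptor, had a log2 difference of 0.07 ± 0.05 and did not pass. Among the 171 transcripts with a log2 difference up to 1, those with the smallest p-values included Cp (ceruloplasmin), Asl (urea cycle), Ahcy (methionine cycle) and Por (electron donor of the P450 enzymes), with log2 differences of 0.96, 0.91, 0.73 and 0.57. The median CPM of the 171 was 4.17 in the low-Alb set and 6.65 in the high-Alb set, and that of the 365 with a difference over 2 was 0.5255 and 3.39.

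Alb also varied among libraries on the same side of the division, and this variation was not used to choose the sets. A slope on log2 Alb CPM, centered within each set, was fitted with training group and division in the model. Of 16128 genes other than Alb, 171 (1.06%) had a positive slope and 15 (0.0930%) a negative slope at an adjusted p-value under 0.05. Of the 171, 133 were also higher in the high-Alb set and 55 were in the liver lists. Among those with the smallest p-values were Apoc3, Apob, Apoa1 and Ttr, with slopes of 0.93, 0.97, 1.11 and 1.05 on the log2 scale. A slope of 1 means that the transcript changed in proportion to Alb. The median slope was 0.78 for the 365 transcripts with a log2 difference over 2, 0.49 for the 115 between 1 and 2, 0.16 for the 171 up to 1 and 0.00 for the 15452 that were not called. Fitted separately, the median slope of the 365 was 0.79 among the 8 high-Alb libraries and 0.80 among the 13 low-Alb libraries, where the medians of the genes not called were both -0.01. Active replicate 2, the high-Alb library with the lowest Alb, carried much of the count of slopes: without it, 43 were positive and 2 negative, and the median slope of the 365 was 0.60. Without Inactive replicate 1, the library with the highest Alb, 111 were positive and 4 negative.

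**Figure D3:**
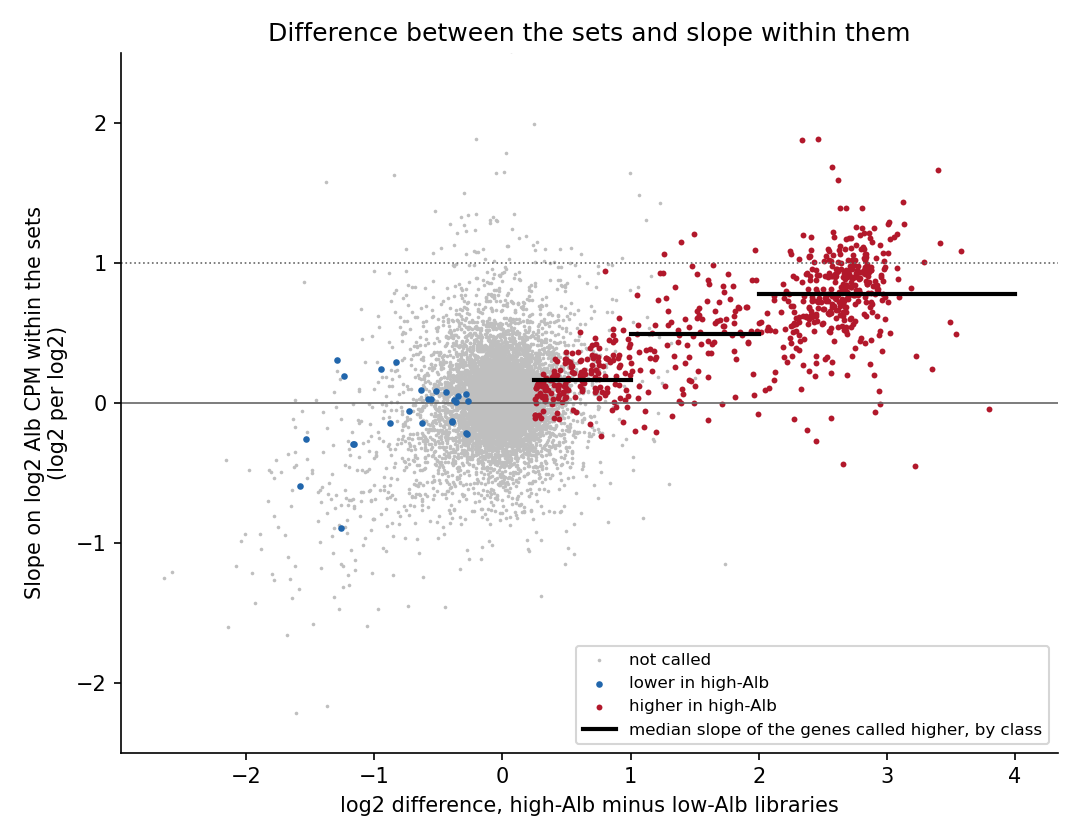
Each point is a gene, with its log2 difference between the high-Alb and low-Alb sets on the x axis and its slope on log2 Alb CPM within the sets on the y axis (log2 per log2, dotted line at 1; 2 genes lie beyond the axis). The median slope of the transcripts called higher, drawn as black lines, rises from 0.16 to 0.49 and 0.78 with the size of the difference, and the 26 transcripts called lower lie around a slope of 0.

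The 15 transcripts with a negative slope were none of those called in the division, and their number was 5 without Activity Reduction replicate 3, 8 without Activity Reduction replicate 7, 23 without Activity Reduction replicate 4 and 25 without Inactive replicate 7. Of the 15, 5 were in the gene lists: Actn3 and Atp2a1 of fast fibers, Cmya5 of the sarcomere, the immediate early gene Fos, and Ctsl of the liver sinusoid list. Among muscle list genes, Sypl2 of calcium handling had a positive slope, 0.29 (adjusted p = 0.023). Sptb, the muscle and erythroid beta-spectrin and one of the other 10, had 365 to 429 CPM in the high-Alb set and 368 to 465 CPM in the low-Alb set, with a slope of -0.21 ± 0.04 (adjusted p = 0.0080). Atp2a1, the calcium pump of fast fibers, had a slope of -0.14 (adjusted p = 0.023) and a log2 difference between the sets of 0.01 ± 0.04. The ranges of both transcripts overlapped between the sets.

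Some markers of other liver cells were higher, at low counts, and most did not pass. Of 6 tested Kupffer cell markers, 3 passed, and they were Clec4f, Cd5l and Vsig4, beside 4.04% of all tested genes that were higher. Clec4f, a lectin of Kupffer cells, had 0.780 to 2.52 CPM (median 1.31) in the high-Alb set and 0.0938 to 0.751 CPM (median 0.223) in the low-Alb set, a log2 difference of 2.31 ± 0.31. Cd163 and Folr2, which macrophages of muscle also express, had log2 differences of 0.13 ± 0.21 and -0.25 ± 0.23 and did not pass. Of 8 markers of the liver sinusoid, Clec4g, Oit3 and Dnase1l3 passed, with log2 differences of 2.42, 2.25 and 2.06. Of 7 stellate cell markers, Colec10 passed, at 0.156 to 0.946 CPM (median 0.447) against 0.0361 to 0.134 CPM (median 0.0812). At so few counts in the low-Alb set, Colec10 was kept for testing through the high-Alb libraries, so its call is only a description. The same holds for Dnase1l3 of the sinusoid list, which also had few counts in the low-Alb set. None of 4 tested bile duct markers passed.

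Markers of pancreas and kidney were at or near 0, and those of intestine and skin were mostly so. Of 11 markers of pancreatic acinar cells, 0 had enough counts to be tested and 6 had no count in any library. Their summed level was 0.0818 to 0.408 CPM in the high-Alb set and 0.0751 to 0.272 CPM in the low-Alb set, and Cela1 was the most abundant. Of 10 kidney markers 1 was tested, Napsa, and it did not pass (log2 difference 0.01 ± 0.32). Of 10 intestinal markers 5 had no count and 3 were tested. Of these 3, Apoa4 and Fabp2, which liver also expresses, passed with log2 differences of 2.57 and 2.20. Over all tested genes, 4.04% were higher. Apoa4, the most abundant of them, had 1.66 to 5.36 CPM in the high-Alb set and 0.208 to 1.01 CPM in the low-Alb set. Fabp2, at 0.0361 to 0.231 CPM in the low-Alb set, was kept for testing through the high-Alb libraries, so its call is only a description. The 1 skin marker tested, Krt10, had medians of 2.41 and 2.31 CPM and a log2 difference of 0.01 ± 0.14.

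No blood cell transcript passed the thresholds. Of 18 tested erythroid, platelet and neutrophil markers, 0 were called with edgeR and 0 with DESeq2, and 1, the erythroid marker Isg20, had an unadjusted p-value under 0.05 in edgeR (5.56%). Over all tested genes, 4.20% were called and 12.6% had an unadjusted p-value under 0.05, so with 18 markers a count of 0 is near the background. Hbb-bs, an adult beta-globin, had 26.4 to 46.5 CPM (median 34.2) in the high-Alb set and 20.5 to 44.5 CPM (median 30.1) in the low-Alb set, a log2 difference of 0.11 ± 0.14 (adjusted p = 0.85). Hba-a1, an alpha-globin, had a log2 difference of 0.18 ± 0.13. The sets overlapped for both globins. The platelet gene Pf4 had a log2 difference of 0.04 ± 0.17 and the neutrophil gene Mmp9 one of -0.42 ± 0.40.

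Of 90 tested immune transcripts, 1 passed with edgeR, beside 4.20% of all genes called, and 12, 7 higher and 5 lower, had an unadjusted p-value under 0.05 (13.3%, against 12.6% of all genes tested). They comprised markers of 19 macrophage, 6 monocyte, 7 dendritic cell, 3 B cell, 3 T and NK cell and 6 mast cell genes, with 15 histocompatibility, 21 interferon response and 10 acute phase and cytokine genes. DESeq2 called 4, which were Bst2, Fn1, Rsad2 and Trem2. Of blood and immune genes together, 7 were called without training group in the model, 4 with log2 Alb CPM in place of the sets, 3 with no filter on low counts, and 1 or 2 with any 1 library left out. The 6 mast cell genes had the highest median log2 difference of these lists, 0.40, and 0 of them had an unadjusted p-value under 0.05. The transcript called by edgeR was Fn1 of the monocyte list, which encodes fibronectin, a protein that hepatocytes secrete too. Fn1 had 32.2 to 62.8 CPM (median 52.5) against 21.9 to 34.4 CPM (median 27.7), a log2 difference of 0.75 ± 0.11 (adjusted p = 1.6e-05). Csf1r, a receptor of macrophages, had 2.79 to 8.47 CPM (median 5.00) against 1.93 to 6.40 CPM (median 3.94) and did not pass. Trem2 had the smallest p-value of the macrophage list, with a median of 0.147 CPM in the high-Alb set and 0.326 CPM in the low-Alb set (log2 difference -2.04 ± 0.65, adjusted p = 0.092). Ranges of both macrophage transcripts overlapped. H2-K1, a classical class I gene, had a log2 difference of 0.25 ± 0.09 (adjusted p = 0.15).

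**Figure D4:**
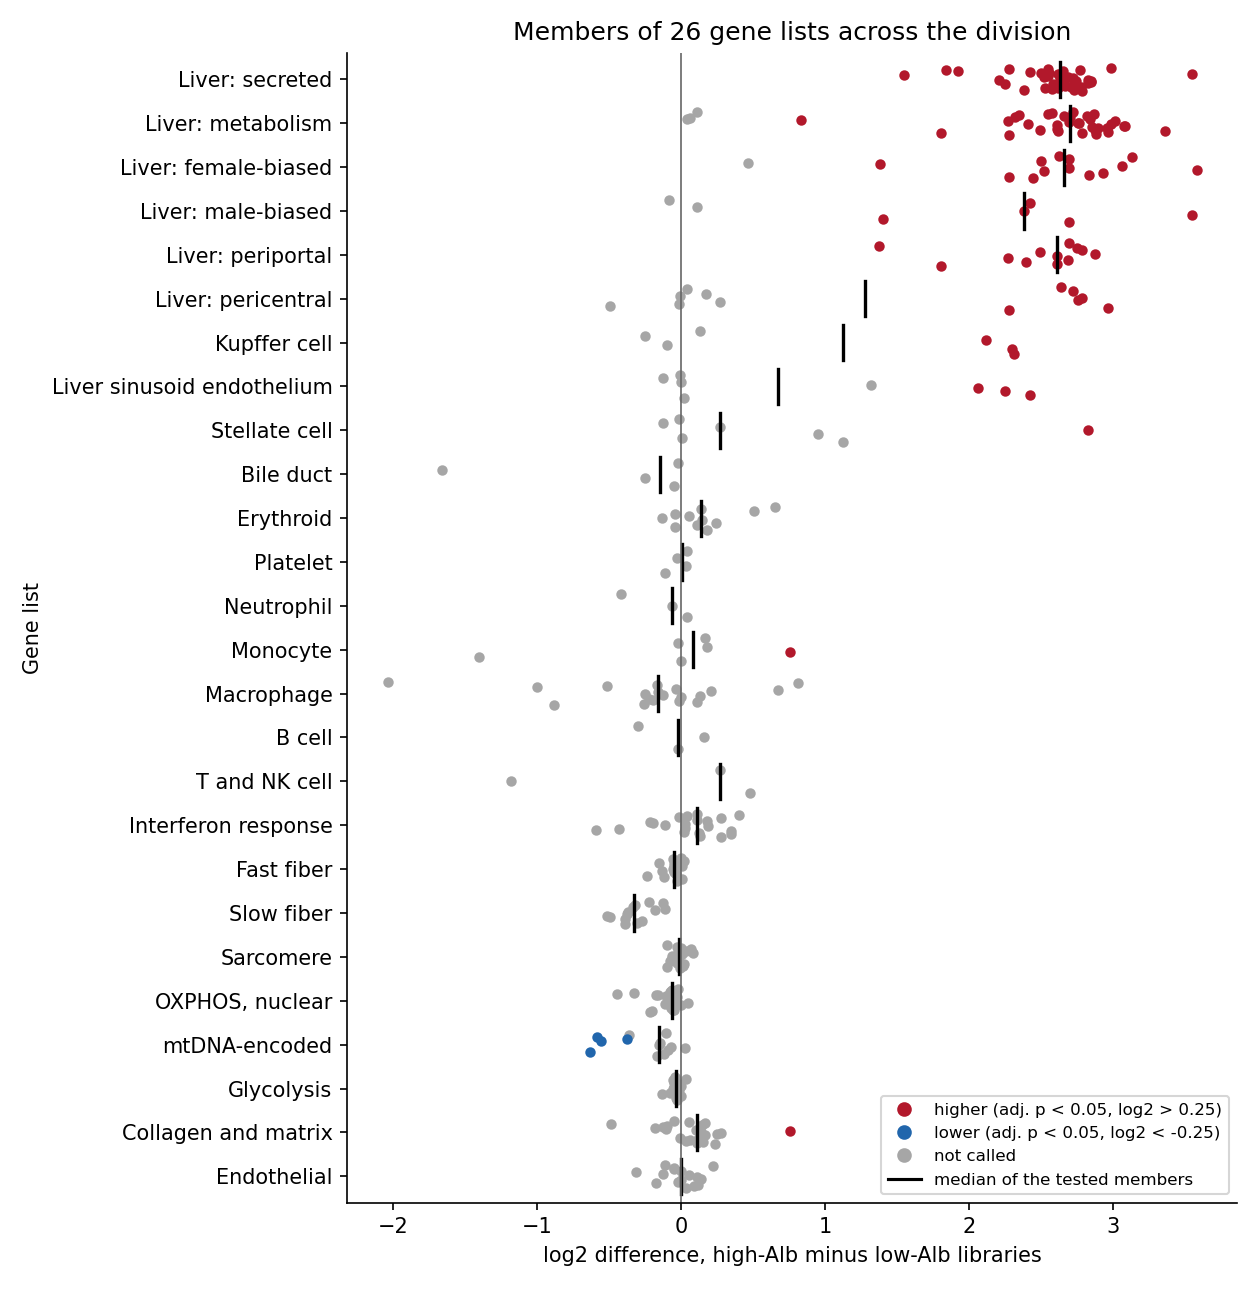
The log2 difference between the high-Alb and low-Alb sets (x axis) of each tested member of 26 gene lists, with transcripts called higher in red, called lower in blue and not called in grey, and the median of each list as a black bar. The 4 lists of secreted, metabolic, female-biased and periportal liver genes have medians between 2.61 and 2.70, the plotted blood, immune and muscle lists have medians between -0.33 and 0.27 (the mast cell list, at 0.40, is not drawn), and 4 transcripts encoded by mitochondrial DNA are lower.

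Muscle transcripts had differences near 0 on the same scale. Of 211 tested genes of the muscle lists that the nucleus encodes, 0 passed with edgeR and 1, the cytochrome c oxidase subunit Cox8b, with DESeq2. In edgeR 33 of the 211, 6 higher and 27 lower, had an unadjusted p-value under 0.05. The number called was 4 without Activity Reduction replicate 2, 1 without Activity Reduction replicate 4 or Inactive replicate 7, and 2 with log2 Alb CPM in place of the sets. The 33 are 15.6% of the 211, beside 12.6% of all tested genes, of which 4.20% were called and 0.161% called lower. Myh4 had 68611 to 96075 CPM (median 83243) in the high-Alb set and 68045 to 90042 CPM (median 81415) in the low-Alb set, a log2 difference of -0.03 ± 0.07. None of 9 myosin heavy chain genes, 15 fast fiber genes, 19 sarcomere genes, 15 genes of calcium handling and excitation, 17 glycolytic genes or 20 genes of fatty acid use passed, and the medians of these 6 lists lay between -0.12 and 0.02. The 14 slow fiber genes had log2 differences from -0.52 to -0.11 with a median of -0.33, and 4 had an unadjusted p-value under 0.05. Myh7, the slow myosin heavy chain, had 177 to 617 CPM (median 447) against 92.3 to 687 CPM (median 523), a log2 difference of -0.39 ± 0.26 (adjusted p = 0.61). Its range was wider in the low-Alb set. In the list of 27 nuclear genes of oxidative phosphorylation, 12 (44.4%) had an unadjusted p-value under 0.05, all lower in the high-Alb set, and the median log2 difference was -0.06. At an adjusted p-value under 0.05 alone 2 of the 27 were lower, Ndufa4 and Cox5b, with log2 differences of -0.20 and -0.18. The complex I subunits Ndufb1 and Ndufa3 were not in the muscle lists, and both were called lower, as described below. None of 18 metabolic regulators, 12 myogenic genes, 12 neuromuscular genes, 21 stress and early response genes or 17 clock genes passed, and Pdk4, which restrains glucose oxidation, had a log2 difference of -0.54 ± 0.20 (adjusted p = 0.21).

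Of the connective tissue and other resident cell lists, Fn1 was the 1 of 23 collagen and matrix genes that passed, and Elovl6, a fatty acid elongase, the 1 of 16 adipocyte genes, which is near the 4.20% of all tested genes that were called. Elovl6 had 1.23 to 5.59 CPM (median 3.18) in the high-Alb set and 0.903 to 2.67 CPM (median 1.27) in the low-Alb set, a log2 difference of 0.82 ± 0.22 (adjusted p = 0.024). None of 11 tendon, 16 endothelial and 11 Schwann cell genes passed. The Schwann cell list had a median log2 difference of -0.41, and 4 of its genes (36.4%) had an unadjusted p-value under 0.05, all lower in the high-Alb set. Over the 77 tested genes of these lists 11.7% had one, beside 12.6% of all tested genes. Of the lists that bear on RNA quality, 0 of 12 replication-dependent histones and 0 of 10 nuclear or ribosomal RNAs passed with edgeR or DESeq2, and 1 of each had an unadjusted p-value under 0.05 in edgeR.

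Some mitochondrial mRNAs were lower in the high-Alb set. Of 13 mRNAs that mitochondrial DNA encodes, 4 passed both thresholds and 8 had an adjusted p-value under 0.05, all with lower expression, beside 0.409% of all tested genes that were lower at that adjusted p-value alone. The 8 became 5 without Activity Reduction replicate 2, without Active replicate 7, with a replicate block, without training group in the model and in the Active and Activity Reduction groups alone, and the 4 became 3 without either of those libraries. COX1, the core subunit of cytochrome c oxidase, had 26517 to 32448 CPM (median 30847) in the high-Alb set and 28625 to 34924 CPM (median 31709) in the low-Alb set, a log2 difference of -0.14 ± 0.03 (adjusted p = 0.0051). ND1, a subunit of complex I, had 9520 to 11211 CPM (median 10866) against 11046 to 12382 CPM (median 11706), a log2 difference of -0.17 ± 0.03 (adjusted p = 0.0012). The ranges of both overlapped. The 4 that passed both thresholds were COX2, ATP6, ND3 and COX3, with log2 differences of -0.56, -0.58, -0.63 and -0.38. These 4, with ATP8 and ND4L, are the 6 mRNAs that lie wholly inside a nuclear copy of mitochondrial DNA (GRCm39, chr1:24650616-24655265, 4650 aligned bases, 99.96% identity), and per length their counts were far lower than those of the other mitochondrial mRNAs. COX2 had a median of 34.3 CPM per kb in the high-Alb set, and COX1, 31.0% of which lies in the copy, 19966 CPM per kb. Reads of these 6 mRNAs match both places, so their values are uncertain, and the part of this in their differences was not tested.

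**Figure D5:**
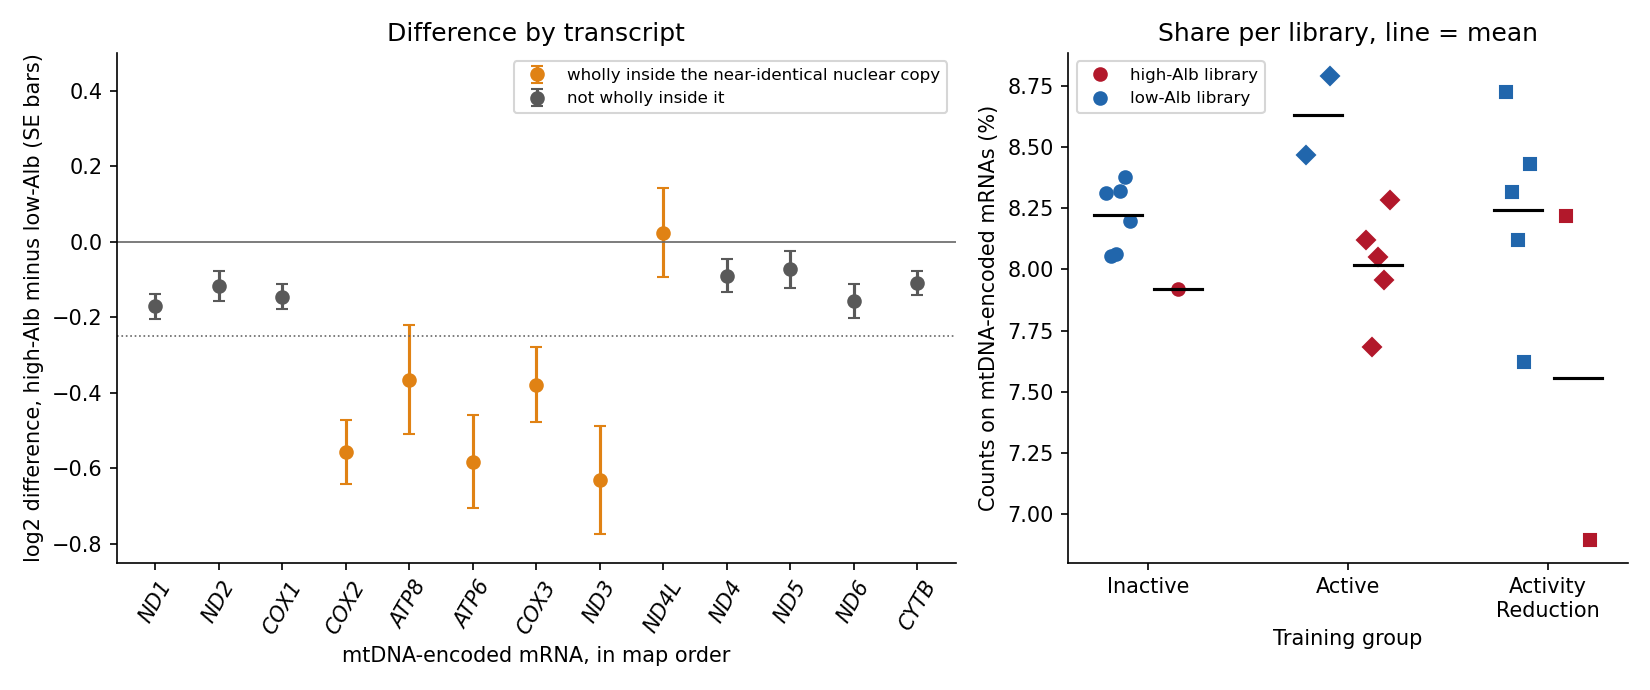
Left, the log2 difference between the high-Alb and low-Alb sets (SE bars) of 13 mRNAs encoded by mitochondrial DNA, with the 6 that lie wholly inside a nuclear copy in orange and the fold threshold as a dotted line. Right, the percent of counts on these 13 mRNAs in each library by training group, with lines for means; the y axis does not start at 0, and Activity Reduction replicate 2, at 6.90%, is the lowest library.

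The share of counts on the 13 mitochondrial mRNAs was 7.89% ± 0.443 (SD, n = 8) in the high-Alb set and 8.29% ± 0.302 (SD, n = 13) in the low-Alb set. With division labels permuted within training groups, the difference of -0.426 percentage points gave p = 0.0075 (exact permutation test, two-sided), or 0.052 after Benjamini-Hochberg adjustment over 7 measures of the libraries. The shares on ribosomal protein genes, globins, replication-dependent histones and the 10 most counted genes, the number of genes with a count and the total count had adjusted p-values of 0.27 to 0.53 in the same test. Permuted over all libraries, total counts gave an adjusted p-value of 0.056 (exact permutation test, p = 0.0095). Total counts were 46571979 ± 5387030 (SD, n = 8) in the high-Alb set and 52164782 ± 3618453 (SD, n = 13) in the low-Alb set. The 37 complex I subunits encoded in the nucleus had a median log2 difference of -0.11 and ran from -0.36 to -0.00, and 2 of them passed, beside 0.161% of all tested genes that were lower. They were Ndufb1 and Ndufa3, whose canonical transcripts are 867 and 515 bases long, beside a median of 3272 bases over the tested genes. The 82 tested genes of cytoplasmic ribosomal proteins had a median of -0.09 and 0 passed. The part of the mitochondrial share and of sequencing depth in the other differences was not tested.

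For each of the 26 transcripts that were lower, the ranges of the sets overlapped. Their number was 10 without Active replicate 7 and 42 without Activity Reduction replicate 2. The 10 with the smallest p-values were COX2, Ndufb1, ATP6, Ndufa3, Spock3, ND3, Oacyl, Fxyd6, Vwa3a and Cacna2d2. Ndufa3, a subunit of complex I, had 54.0 to 83.2 CPM (median 69.6) in the high-Alb set and 68.8 to 97.9 CPM (median 85.5) in the low-Alb set, a log2 difference of -0.35 ± 0.07 (adjusted p = 0.0031). Spock3 had the largest log2 difference of these 10, -1.58 ± 0.34, at 0.0385 to 0.364 CPM (median 0.146) against 0.151 to 0.667 CPM (median 0.290). Fxyd6, which encodes a regulator of the sodium pump, had 40.8 to 68.8 CPM (median 48.4) against 41.6 to 75.1 CPM (median 49.8), and the log2 difference of -0.28 ± 0.07 is larger than the gap between these medians because training group is in the model.

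Only the Active and Activity Reduction groups held at least 2 libraries in each set, so the division was also compared within them. Within the Active group (5 against 2 libraries), 416 transcripts (2.58%) were higher and 5 (0.0310%) lower in the high-Alb libraries. Within the Activity Reduction group (2 against 5 libraries), 472 (2.93%) were higher and 25 (0.155%) lower. Rdh7 had log2 differences of 2.74 and 2.78 in these groups, and COX2 had -0.67 and -0.69. A difference between the groups in the size of the division effect was found for 0 transcripts with edgeR's quasi-likelihood test of the interaction and 0 with DESeq2, and 526 (3.26%) had an unadjusted p-value under 0.05 in edgeR. In the Inactive group 1 library was high-Alb, so there the division has no replicate.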

How the data were processed

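Before deposit, the authors used fastp for trimming, RNA STAR for alignment (GRCm39) and featureCounts for gene counts; versions, annotation and strand setting are not given in the sources used here. The deposited values are raw counts of 40853 genes in 21 libraries. A second deposited table held the same 857913 values and was not used. Members and gene lists were chosen with earlier results of these data known. CPM used the column totals. Genes were kept with edgeR's filterByExpr by training group (16129 genes), normalized by TMM and tested with edgeR 4.0.16 (R 4.3.3) in a model of training group and division. SE is the log2 difference over the square root of F. Calls of liver list genes are counts only and support nothing, since the sets were known to differ in liver transcripts. The interaction of division with the Active and Activity Reduction groups and the slope on Alb were separate fits. On simulated counts of 16129 genes, the division test recovered 53.5%, 82.5% and 95.5% of genes changed by 0.5, 1 and 2 on the log2 scale. The slope test recovered 48%, 71.5% and 92% of genes given slopes of 0.5, 1 and 2 on log2 Alb CPM. For log2 changes of 0.5, 1 and 2 in the high-Alb Active libraries only, the interaction test recovered 8%, 48% and 75%. Unchanged genes called were 3, 8 and 12 for the division, 7 at each size for the slope, and 2, 4 and 3 for the interaction. Library measures were compared by exact permutation within training groups.

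Genes named were the 10 with the smallest p-values in each direction outside the liver lists, the 3 most abundant members of each list (6 for liver lists) with the smallest p-value of the others, and the 5 smallest p-values of each slope direction; genes named beyond these, including all family members and the lists of transcripts with small differences, were chosen after their values were seen. Some genes that this rule names are not reported here. Alternatives were DESeq2 1.42.0, other normalization, filters, covariates and sets of libraries, and each library left out in turn. Gene positions are from GENCODE vM39 (GRCm39), nuclear copies of mitochondrial DNA were found with minimap2, and promoters are RefSeq's (GRCm38.p6), matched by symbol for 12376 of 16129 tested genes. Counting error is small at these depths except for transcripts below about 1 CPM.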

Additional observations from a re-analysis of the deposited data

Results flagged for a closer look

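Of 215 named transcripts and library measures examined among the 8 high-Alb libraries, 19 had 1 library far from the other 7 by Dixon's ratio of its gap to the range. By its design this test flags about 1 in 20 groups by chance, and the transcripts are not independent of one another. Active replicate 2, the high-Alb library with the lowest Alb, had 3.79 CPM of Cyp2d10 (7.86 to 10.8 in the other 7), 30.9 CPM of Ahsg (71.4 to 99.7), 18.9 CPM of Sdc4, a syndecan of satellite cells (22.1 to 24.7), and 0.130 CPM of the pancreatic gene Ctrb1, which had 0 counts in the other 7. Active replicate 5 stood apart for 8 transcripts, each at its highest there, with 543 CPM of Glul, 0.853 CPM of Fabp2, 34.9 CPM of Ace, 47.7 CPM of Nfkbia, 7.09 CPM of Il6ra, 86.1 CPM of Flt1, 80.9 CPM of Cdh5 and 519 CPM of Plin4. Flt1 and Cdh5 are endothelial genes, and their other 7 values were 53.3 to 60.4 CPM and 58.6 to 62.8 CPM.

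Activity Reduction replicate 2 had the lowest share of counts on mitochondrial mRNAs, 6.90% against 7.68% to 8.28%, with 141 CPM of the clock gene Nr1d2 (162 to 177) and 0.193 CPM of the skin gene Lor. Inactive replicate 1 had 2.31 CPM of ND3 (0.982 to 1.53) and 2017 CPM of Cacna1s (1661 to 1818), the voltage sensor of muscle. Active replicate 1 had 1.06 CPM of Vwa3a, and Active replicate 3 had 24.0 CPM of the myelin gene Mbp (9.77 to 16.1).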

How the results depend on the processing

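The number of transcripts higher in the high-Alb set was between 438 and 754 under every alternative, and between 602 and 672 with 1 library left out. All 651 kept their direction in each alternative in which they were tested. The number of lower transcripts, 26 as reported, was 60 with DESeq2, 41 with no filter on low counts, 15 with at least 1 CPM in at least 8 libraries, 17 without training group in the model and 66 with no threshold on fold change. It ran from 10 to 42 with 1 library left out. Slopes on Alb passed for 186 transcripts, 15 of them negative, as reported. With DESeq2 383 passed, 65 of them negative, in the 8 high-Alb libraries alone 85 and 0, and in the 13 low-Alb libraries alone 17 and 3. With 1 library left out the number ran from 45 to 207, with 2 to 25 negative. The share of the 10 most counted genes differed by -0.242 percentage points within training groups and by 0.141 over all libraries (adjusted p = 0.713, exact permutation test). The difference in total counts was -1731214 within groups and -5592803 over all libraries. Of 195 named transcripts, the 55 that were called kept their direction, and 75 of the others changed sign in at least 1 alternative, none of them past the thresholds there.

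Replicate numbers did not pair the samples: over 21 same-numbered pairs, the correlation of deviations from group means was -0.22 to 0.47 (median 0.01), and 3 libraries matched their own number best. With a replicate block, 486 transcripts were higher and 50 lower, of which 469 and 7 were shared with the reported ones. The high-Alb libraries have the lowest replicate numbers of their groups, so the block and the division are partly confounded. Transcripts below about 1 CPM rest on few counts per library, and values of near-identical paralogs are uncertain.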

Other observations

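Canonical transcripts had a median length of 3272 bases over the tested genes, 2585 among the 651 higher and 1857 among the 26 lower transcripts, with a length for 93.1%, 97.7% and 96.2% of each set. Among genes not called higher, the median log2 difference was -0.04 for 248 genes under 500 bases, -0.04 for 925 genes of 500 to 1000 bases and -0.01 for 2506 genes of 1000 to 2000 bases. For the 950 genes over 8000 bases it was -0.01. Of the higher transcripts with a length, 98.0% were protein coding, against 91.1% of all tested genes and 80.0% of the lower ones. The part of transcript length in the differences was not tested.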
